A study of Homo sapiens with 32 samples.

Results

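YAP1 and WWTR1, which encodes TAZ, are the transcriptional coactivators at the end of the Hippo pathway, and they are described here with TEAD1 and 7 genes that regulate them or respond to them. The 10 genes were taken by symbol from the authors' deposited table of 58317 genes, and all 10 were found: YAP1, WWTR1, TEAD1, LATS2, AMOTL2, AJUBA, CYR61, CTGF, ANKRD1 and AXL. CYR61 and CTGF are now named CCN1 and CCN2. RNA was sequenced from SH-EP/TET21/N (TET21) cells, a human neuroblastoma line of passages 10 to 15 whose MYCN transgene is turned off by doxycycline. The 32 libraries form 8 groups of 4. One carries an empty vector, labelled EV, another full-length MYC, labelled WT, and the remaining 6 carry MYC with a deletion: d0x, d1 and d2, d3a and d3b, and d4. What each deletion removes is not described in the labels, and the segments are taken from the label names to be the conserved MYC boxes 0, I, II, IIIa, IIIb and IV. Every group, EV included, is labelled with doxycycline at 1 µg/mL for 7 days, in a protocol that names the cells expressing WT alone, and all groups carry the cells' own MYC. Whether each group is a clone or a pool of cells, and how much MYC protein it made, is not stated in the labels.

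In the Hippo pathway the kinases LATS1 and LATS2 phosphorylate YAP and TAZ, which keeps the coactivators out of the nucleus. Unphosphorylated YAP and TAZ bind TEAD factors on DNA and switch on genes for secreted matrix-associated proteins, cytoskeletal proteins and growth receptors. Several targets, LATS2 and AMOTL2 among them, act back on the pathway as inhibitors. In neuroblastoma, YAP and its targets are known from the mesenchymal type of cell, to which the parent line SH-EP belongs.

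TEAD factors bind the letters GGAATG, and MYC with its partner MAX binds the E-box CACGTG. Start-site windows of RefSeq on GRCh38.p14, with 250 bases before and 50 after the start, were found for 8 of the 10 genes, and not for CYR61 and TEAD1. The windows of 4 genes are printed 5′ to 3′ on the gene's strand, because they set the gene with the deepest fall and the gene with the next most TEAD letters beside genes that hold an E-box. Capitals mark the TEAD letters and the E-box, and also TGANTCA, where N is any base. TGANTCA is a looser form of the letters TGACTCA or TGAGTCA that AP-1 factors bind. Both strands were searched for each of these, and none of the marked matches overlap. The windows are chr6:131951323-131951622 on the minus strand for CTGF, chr10:90921038-90921337 on the minus strand for ANKRD1, chr13:21061537-21061836 on the minus strand for LATS2, and chr11:102110197-102110496 on the plus strand for YAP1.
CTGF: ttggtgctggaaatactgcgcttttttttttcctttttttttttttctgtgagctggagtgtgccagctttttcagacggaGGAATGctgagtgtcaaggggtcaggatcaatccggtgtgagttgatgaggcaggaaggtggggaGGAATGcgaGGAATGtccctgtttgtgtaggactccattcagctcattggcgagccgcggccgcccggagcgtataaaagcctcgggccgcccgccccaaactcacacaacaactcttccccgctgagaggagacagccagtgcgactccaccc
ANKRD1: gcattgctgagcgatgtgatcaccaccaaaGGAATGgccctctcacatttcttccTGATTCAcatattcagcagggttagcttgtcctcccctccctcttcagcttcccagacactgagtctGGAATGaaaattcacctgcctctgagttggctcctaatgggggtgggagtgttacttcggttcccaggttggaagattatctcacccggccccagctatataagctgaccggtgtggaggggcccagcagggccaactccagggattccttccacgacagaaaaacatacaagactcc
LATS2: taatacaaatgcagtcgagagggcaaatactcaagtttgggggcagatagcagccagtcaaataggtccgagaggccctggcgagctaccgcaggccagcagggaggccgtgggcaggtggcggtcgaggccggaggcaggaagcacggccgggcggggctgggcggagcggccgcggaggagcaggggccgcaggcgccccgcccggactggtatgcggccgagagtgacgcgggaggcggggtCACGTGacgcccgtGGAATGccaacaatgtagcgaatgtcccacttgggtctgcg
YAP1: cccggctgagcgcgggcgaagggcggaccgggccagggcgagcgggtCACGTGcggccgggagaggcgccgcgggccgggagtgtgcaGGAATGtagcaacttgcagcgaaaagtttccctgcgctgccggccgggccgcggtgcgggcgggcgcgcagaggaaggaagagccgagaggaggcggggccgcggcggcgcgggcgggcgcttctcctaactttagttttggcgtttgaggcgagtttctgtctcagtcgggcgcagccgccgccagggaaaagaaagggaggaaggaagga

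The CTGF window held GGAATG 3 times, its first base 169, 104 and 95 bases before the start. Of 35116 RefSeq windows 14% held these letters at least once, 1.37% at least 2 times and 0.128%, or 45 windows, at least 3 times. ANKRD1 held them 2 times, 220 and 128 bases before the start. Its TGANTCA match lay 195 bases before the start and reads TGATTCA, with T at N rather than C or G. With any base at N, TGANTCA was present in 7.71% of all windows. The letters GGAATG stood once in a window of AMOTL2, AJUBA, AXL, LATS2 and YAP1, and in neither window of WWTR1. CACGTG stood in the windows of LATS2, 5 bases before the start, and of YAP1, 203 bases before it, against 7.26% of all windows. A match describes the letters only and does not show that a factor binds.

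The authors' second deposited table holds the 9368 genes to which they gave a MYC binding site. It holds 8 of the 10 genes, all but CTGF and ANKRD1. Among protein-coding genes tested in WT against EV, 50.1% are in it, and among those that fell it holds 53.0%. Windows of tested genes in that table held CACGTG in 10.2% of cases and those of other tested genes in 6.57%. CTGF and ANKRD1, the genes outside the table, had the most GGAATG matches of the 8 genes with a window. They had no CACGTG, but neither had WWTR1, AMOTL2, AJUBA and AXL, which are in the table. Windows of tested genes in the table held GGAATG in 11.1% of cases and those of other tested genes in 13.3%.

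Values below are log2 folds between groups, not levels, and a gene counts as called, as having risen or fallen, where the authors' posterior probability of differential expression (PPDE) is at least 0.95. Values per library were not used here, so no fold has an SD and its precision is unknown. The labels do not say whether the replicates, numbered 4 to 7, are separate cultures, so that a call may measure technical spread. In bulk RNA, fewer cells of a type and less RNA per cell cannot be told apart. As a check of the labels, the authors' deposited table put MYC itself at 0.98 in WT against EV, and with a PPDE of 0.348, did not call it. Against WT, MYC stood at 0.57 in d0x, 0.46 in d1 and 0.68 in d2 in the authors' deposited table. It stood at 0.67 in d3a and 0.57 in d4, but at -0.09 in d3b. None of these 6 folds was called, and a fold over the whole gene does not show a deletion. The part of unequal MYC RNA in the folds of the mutants was not tested. Of 11 adrenergic neuroblastoma markers 9 had a value when WT was set against EV and 8 had one in each mutant, and of 12 mesenchymal markers all had one in every comparison. A gene without reads has no value, and levels were not used here, so that the type of the cells was not checked further.

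WT against EV compares cells given full-length MYC with cells given the empty vector. The secreted matricellular proteins CTGF and CYR61, the kinase LATS2 and the receptor tyrosine kinase AXL fell, and no member rose. The authors' deposited table gives CTGF a fold of -1.83, so that EV held 3.56 times the WT level. CYR61 stood at -1.24 in the authors' deposited table, 2.37 times higher in EV, each with a PPDE of 1. LATS2 stood at -0.75 with a PPDE of 1 and AXL at -0.65 with a PPDE of 0.957 in the authors' deposited table. Called as fallen were 4 of 10 members against 2.94% of all tested genes, and against 5.96% of protein-coding genes. The members were chosen with earlier results of these data known, so these shares are a description only. CTGF ranked 140th and CYR61 327th by size among the 1122 fallen genes, whose median fold was -0.88, while LATS2 and AXL were smaller than that median. AXL was the closest of these calls to the threshold.

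The other 6 members also stood below 0 in that comparison but were not called. ANKRD1, a nuclear ankyrin-repeat protein of muscle and a standard YAP target, stood at -1.19 in the authors' deposited table with a PPDE of 0.116. Its fold was thus close to that of CYR61 without a call. Of 1056 protein-coding genes with a fold as low as ANKRD1 or lower, 306 or 29% were called, so that size alone did not make a call in this table. AMOTL2, an angiomotin that holds YAP at junctions and in the cytoplasm, stood at -0.47 with a PPDE of 0.186 in the authors' deposited table. TEAD1, the DNA-binding partner, stood at -0.43 with a PPDE of 0.0101 in the authors' deposited table. The coactivators themselves stood closer to 0, YAP1 at -0.29 with a PPDE of 0.0251 and WWTR1 at -0.09 with a PPDE of 0.0026 in the authors' deposited table. AJUBA, a LIM-domain protein that restrains the LATS kinases, stood at -0.18 in the authors' deposited table. Over the 10 members the median fold was -0.56, against -0.04 over all tested genes and -0.07 over protein-coding genes.

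Each mutant was compared with the same WT libraries that stand in WT against EV, so that the 7 comparisons are not independent. In d2 against WT, which had the most called members of the 6 mutants, CTGF, CYR61 and LATS2 rose. The authors' deposited table gives CTGF a fold of 1.38, CYR61 1.03 and LATS2 0.51 in d2, each with a PPDE of 1, or 2.59, 2.04 and 1.42 times the WT level. These were 3 of 10 members, where 0.695% of all tested and 1.41% of protein-coding genes rose. CTGF ranked 51st and CYR61 90th by size among the 265 risen genes. All 10 members stood above 0 in d2, with a median of 0.43 against 0.04 for all tested genes. AXL stood at 0.54 with a PPDE of 0.336 and AMOTL2 at 0.48 with a PPDE of 0.0129 in the authors' deposited table. TEAD1 at 0.38, YAP1 at 0.34, AJUBA at 0.31, ANKRD1 at 0.29 and WWTR1 at 0.17 in the authors' deposited table had PPDE values of at most 0.0123.

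In d0x against WT, CYR61 and CTGF rose by nearly the same amount, 0.65 and 0.64 in the authors' deposited table, each 1.56 times the WT level. They were 2 of 10 members, against 0.34% of all tested and 0.684% of protein-coding genes. ANKRD1 had its highest fold over WT here, 0.48 in the authors' deposited table, with a PPDE of 0.00095 and no call. AXL at 0.48, AMOTL2 at 0.37, LATS2 at 0.33 and AJUBA at 0.31 in the authors' deposited table were not called, with PPDE values of 0.204, 0.308, 0.023 and 0.124. The coactivators stood near 0, YAP1 at 0.06 and WWTR1 at -0.07 in the authors' deposited table.

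In d4 against WT the same 2 genes were called, CYR61 at 0.60 and CTGF at 0.53 in the authors' deposited table, 1.51 and 1.44 times the WT level. The background was 0.251% of all tested and 0.525% of protein-coding genes risen. AXL stood at 0.35, AMOTL2 at 0.29, LATS2 at 0.24, TEAD1 at 0.19 and AJUBA at 0.18 in the authors' deposited table, with no PPDE above 0.0969. ANKRD1, unlike in d0x, stood at 0.04, and WWTR1 at -0.16 in the authors' deposited table. Whether members differ between d4 and d0x was not tested.

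In d1 against WT, CTGF at 0.38 and CYR61 at 0.30 in the authors' deposited table rose, each with a PPDE of 1. They are 2 of only 11 genes that rose in d1 at all, 0.029% of tested genes and 0.0611% of protein-coding genes. By size they ranked 8th and 9th of the 11. The members as a group stood near the rest, with 7 above 0 and a median of 0.04, where all tested genes had -0.07. ANKRD1 at 0.27 and LATS2 at 0.10 in the authors' deposited table were not called.

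In d3a and d3b no member was called, where 0.0419% and 0.0955% of tested genes were called in either direction. Those are 16 and 36 genes. In d3a the highest folds were those of AXL at 0.31, CYR61 at 0.25, CTGF at 0.23 and LATS2 at 0.23 in the authors' deposited table. LATS2 had the highest PPDE of the members in d3a, 0.461. In d3b CTGF stood at 0.0036 and CYR61 at 0.09, while AMOTL2 at 0.29 and AXL at 0.26 stood highest in the authors' deposited table. The members' median was 0.17 in d3a against -0.02 for all tested genes, and in d3b 0.09 against 0.06. The d3b values of the members were thus close to those of the other genes.

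Adding a mutant's fold over WT to the WT fold over EV gives an approximate fold over EV, with WT taken out of the sum. The sum has no PPDE and no error. For CTGF the sums were -0.46 in d2, -1.19 in d0x, -1.30 in d4, -1.45 in d1, -1.60 in d3a and -1.83 in d3b. CTGF stood below EV in each sum. As a share of the size of the WT fall, its fold over WT was 75.0% in d2, 34.9% in d0x and 28.9% in d4. The same WT libraries stand in both terms of these shares, with opposite sign. Low WT values by accident would thus raise both the fall and the fold over WT, and the shares have no error. CYR61 gave -0.22 in d2, -0.60 in d0x, -0.65 in d4, -0.94 in d1, -0.99 in d3a and -1.16 in d3b. The order of the mutants is the same for both genes, though neighbours cannot be ranked without an error, and for CYR61 d0x and d4 change places in the authors' deposited table of bound genes, at -0.55 and -0.53. LATS2 gave -0.25 in d2, -0.42 in d0x, -0.52 in d4, -0.53 in d3a, -0.62 in d3b and -0.66 in d1. AXL gave -0.10 in d2, -0.17 in d0x, -0.29 in d4, -0.34 in d3a, -0.39 in d3b and -0.63 in d1. For AXL it was d1, not d3b, that stood nearest to WT. For LATS2 which of the 2 stood nearer turned with the scale, since centring on the median gene gave -0.55 in d1 and -0.64 in d3b. Of these 2 genes only LATS2 in d2 was called over WT.

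**Figure D1:**
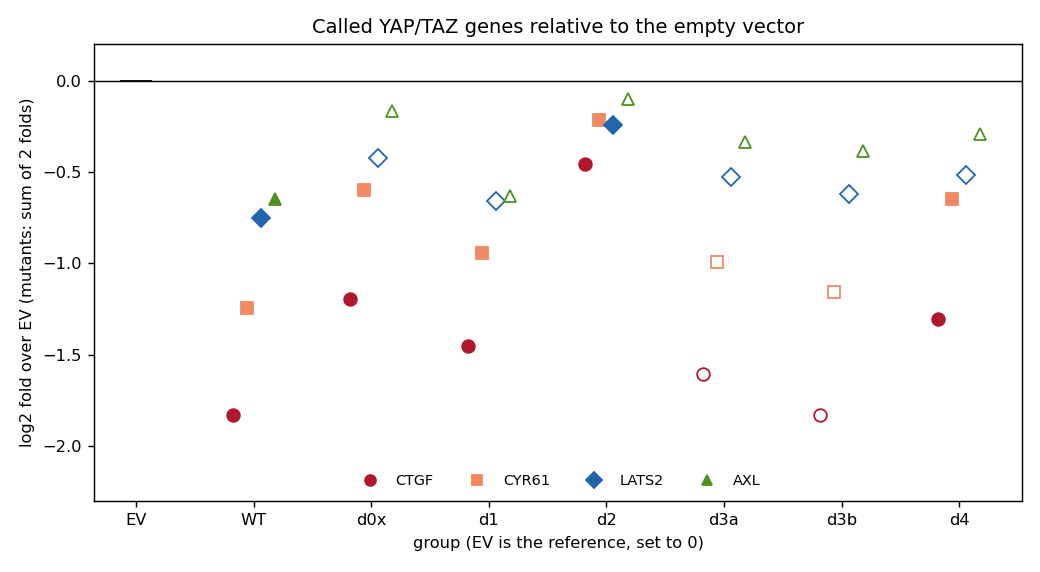
Log2 fold over EV of the 4 genes that fell in WT against EV, by group, where mutant values are sums of 2 deposited folds, and filled mutant points are genes called against WT. Every point lies below the EV line, and d2 is the group nearest to it for each gene, from -0.46 for CTGF to -0.10 for AXL.

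The wider pathway was read from lists of its parts, beside the 2.94% of all tested and 5.96% of protein-coding genes that fell in WT against EV. In lists this short, 1 call is not read as a result about the list. Of 10 coactivator, TEAD and VGLL genes only VGLL4, which competes with YAP for TEAD factors, was called in WT against EV, at -0.54 in the authors' deposited table. TEAD3 stood at -0.36 and TEAD4 at 0.49 in the authors' deposited table, without a call. None of these 10 genes was called in a mutant. Among 16 Hippo kinases and adaptors 3 fell, LATS2, FRMD6 and PTPN14, and 15 stood below 0, with a median of -0.23. FRMD6, an upstream activator of the kinase cascade, stood at -0.78, and PTPN14, a phosphatase that binds YAP, at -0.43 in the authors' deposited table. The core kinase LATS1 stood at -0.03 and the kinases STK3 and STK4 at -0.29 and -0.03 in the authors' deposited table, with no call. LATS2 in d2 was the only Hippo gene that this table called in a mutant. Calls differ in the authors' deposited table of bound genes, where MAP4K4 at 0.25 and PTPN14 at 0.29 rose in d2 and FRMD6 at 0.45 in d4. There LATS2 was not called in d2. Of all bound genes 2.17% rose in d2 and 1.0% in d4. Of 6 angiomotin and Ajuba family genes AMOTL1 fell, with -0.29 in the authors' deposited table, and none was called in a mutant. In the authors' deposited table of bound genes AMOTL1 missed the threshold, with a PPDE of 0.92.

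A published signature of 22 YAP/TAZ targets was listed from general knowledge, and 6 of the 10 members belong to it. Like the members and the other lists, it was chosen with earlier results of these data known. Its counts are thus a description and not independent of those results. In WT against EV 10 of its 21 tested genes fell and none rose, with a median of -0.75, where 5.96% of protein-coding genes fell. Without the members, 6 of 15 fell and the median was -0.66. The 6 were the clotting initiator F3 at -1.74, the growth factor TGFB2 at -1.58, the matrix protein CCDC80 at -1.15, CRIM1 at -1.14, the membrane repair protein MYOF at -0.66 and PTPN14 at -0.43 in the authors' deposited table. In d2, 14 of the 16 stood above 0 with a median of 0.55, but only CCDC80 rose, at 0.97 in the authors' deposited table. TGFB2 at 1.15 and F3 at 1.12 in d2 in the authors' deposited table missed the threshold, with PPDE values of 0.534 and 0.448. F3 was called in d0x, at 0.53 in the authors' deposited table, and stood at 0.02 in d4. The median of the 15 genes was 0.26 in d4, 0.18 in d0x, 0.02 in d1 and 0.05 in d3a, and that of the 16 was 0.08 in d3b. Calls beyond CYR61, CTGF and LATS2 thus numbered 1 gene in d0x and 1 in d2 in this table. Of protein-coding genes 0.684% rose in d0x and 1.41% in d2. The separate fit of bound genes holds 16 of the signature genes, not CCDC80 or CTGF, and called more of them in d2. Besides CYR61 it called 5 that the first table had not, TGFB2 at 1.13, F3 at 1.07, CRIM1 at 0.75, MYOF at 0.50 and PTPN14 at 0.29 in the authors' deposited table of bound genes. In that fit 2.17% of all bound genes rose in d2. For WT against EV it called 11 of the 16 as fallen, where 7.32% of bound genes fell. FJX1 and NUAK2 stood above 0 in WT against EV, at 0.58 and 0.10 in the authors' deposited table, without a call.

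**Figure D2:**
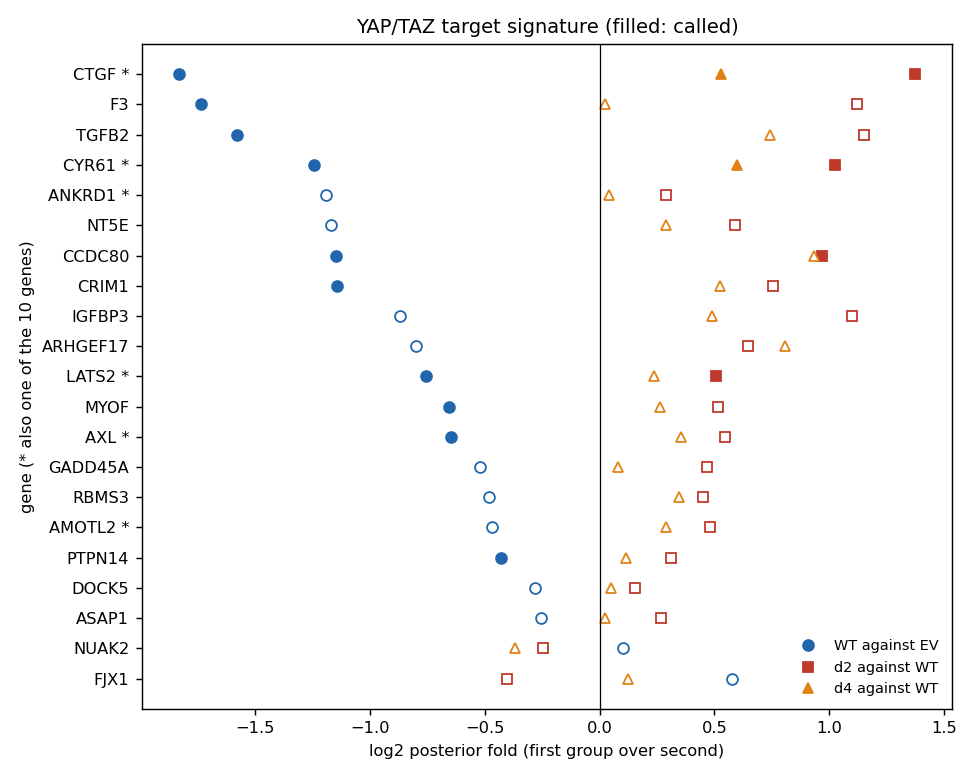
Log2 posterior folds of the 21 signature genes tested in WT against EV (rows), in WT against EV (circles), d2 against WT (squares) and d4 against WT (triangles), filled where called. In WT against EV 10 circles are filled, all below 0, while 4 squares and 2 triangles are filled, all above 0, and both d comparisons share the WT libraries.

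The CCN family did not move as 1 group. NOV, now CCN3, a secreted protein of the same domain plan, rose in WT against EV, at 2.40 in the authors' deposited table, and fell in d2, at -1.95. It stood at -1.13 in d0x with a PPDE of 0.934 and at -0.58 in d4 in the authors' deposited table, both without a call. The remaining members WISP1, WISP2 and WISP3 were not called in any comparison. In the AXL family the ligand gene PROS1 fell in WT against EV, at -1.03 in the authors' deposited table. The other ligand, GAS6, stood at -1.001 in the authors' deposited table with a PPDE of 0.94, just under the threshold, and was called in the authors' deposited table of bound genes, with 0.964. The sister receptors TYRO3 at 0.26 and MERTK at -0.26 in the authors' deposited table were not called.

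CYR61 and CTGF also respond to SRF with its MRTF coactivators, to AP-1 and to TGF-beta, and genes of these routes were read in the same tables, where 5.96% of protein-coding genes fell in WT against EV. Of 12 SRF and MRTF genes TAGLN, VCL and TPM1 fell, to which the authors' deposited table gives -1.56, -0.56 and -0.61, and all 12 stood below 0. In the mutants FHL2 rose in d0x at 0.26, VCL and TPM1 in d2 at 0.30 and 0.51, ACTG2 in d3a at 1.25 and ACTA2 in d4 at 1.00 in the authors' deposited table. FHL2, VCL and TPM1 lost these calls in the authors' deposited table of bound genes, with PPDE values of 0.783, 0.0159 and 0.738. Of 9 AP-1 factors FOSL2 fell, at -0.50 in the authors' deposited table, and none was called in a mutant. Of 15 TGF-beta genes 7 fell, among them TGFB2 at -1.58, THBS1 at -1.50, LTBP2 at -1.42, LTBP1 at -1.37, TGFBR2 at -1.02 and TGFBI at -0.98 in the authors' deposited table. In d2 THBS1 rose by 1.03, LTBP2 by 0.88 and LTBP1 by 0.67, and in d4 TGFBI by 0.73 in the authors' deposited table. Of protein-coding genes 0.684% rose in d0x, 1.41% in d2, 0.0305% in d3a and 0.525% in d4. In the authors' deposited table of bound genes TGFBR3 at -0.44 also fell in WT against EV. TGFBI at 0.44 also rose there in d0x and TGFB2 at 1.13 in d2, and no TGF-beta call was lost among the genes it holds. The part of each of these routes in the folds of CYR61 and CTGF was not tested.

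Markers of other cell types were read in the same comparison, where 5.96% of protein-coding genes fell. Of 7 epithelial markers 3 fell in WT against EV, where the authors' deposited table puts KRT5 at -5.10, KRT14 at -4.66 and CDH1 at -3.59, and none was called in a mutant. Of 12 mesenchymal neuroblastoma markers 4 fell, FN1 at -2.51, SNAI2 at -1.35, NOTCH2 at -0.51 and FOSL2 in the authors' deposited table. FN1 and SNAI2 rose in d2 at 1.77 and 1.36 in the authors' deposited table, where 1.41% of protein-coding genes rose. In WT against EV 11 of the 12 stood below 0 and 1 above, but PRRX1 at 0.05, CD44 at -0.28 and TWIST1 at -0.22 were among those not called. None of the immune markers was called, and 1 of 4 endothelial markers, TEK, fell, at -2.21 in the authors' deposited table. CHGB alone of the adrenergic markers fell, at -1.65 in the authors' deposited table. Levels were not used here, and the part of these markers in the folds of the YAP/TAZ genes was not tested.

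The genes with folds most like those of CYR61 over the 7 comparisons were H6PD, SPARC, SAMD9L, SLC1A4 and MMP14. The measure was the Euclidean distance of log2 folds over 2050 genes called at least once, and it ran from 0.228 for H6PD to 0.276 for MMP14. SPARC, a matricellular protein, has -1.41 for WT against EV, 1.13 for d2 and 0.70 for d4 in the authors' deposited table. For MMP14, a membrane-bound collagenase called in WT against EV alone, the authors' deposited table gives -1.42, 0.96 and 0.69. The genes most like CTGF were CTSO, ECM1, PAPPA2, SLFN5 and ITGB3, at distances of 0.321 to 0.363. ITGB3, the integrin beta-3 chain, stood at -1.75 in WT against EV and 1.15 in d2 in the authors' deposited table. Between CYR61 and CTGF themselves the distance was 0.698. The named distances are the smallest found over 2050 genes, from which members were left out. A larger distance for a pair set beforehand thus does not make CYR61 and CTGF unlike. All 7 points share the WT libraries, and the likeness is a description.

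CYR61 and CTGF were each called in 5 of the 7 comparisons, a count that 19 of 42605 genes tested in any comparison reached or passed, 0.0446%. LATS2 was called in 2 comparisons, a count that 1.58% of tested genes reached or passed, and AXL in 1, which 5.13% reached or passed. The comparisons share WT, so that these counts are not independent. The tested genes include non-coding ones, and these shares were not counted over protein-coding genes alone, where calls were more frequent in each comparison.

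The authors' separate fit of bound genes gives each of the 8 members it holds another fold. The differences from the first table lay near the median of all genes in both tables in d4 and d3b and spread more widely in d2. They ran from 0.0664 to 0.0862 in d4, where the median over 9146 genes was 0.0744, and from -0.0986 to -0.0743 in d3b, where the median was -0.082. In d2 they spread from -0.0526 for WWTR1 to 0.0522 for AMOTL2. In that fit CYR61 was not called in d1, at 0.38 with a PPDE of 0.257 in the authors' deposited table of bound genes, though its fold was higher there. LATS2 in d2 stood at 0.51 with a PPDE of 0.945 in the authors' deposited table of bound genes, just under the threshold. CYR61 kept its calls in WT against EV, d0x, d2 and d4 in that fit, and AXL its call in WT against EV, where its PPDE was 0.988.

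**Figure D3:**
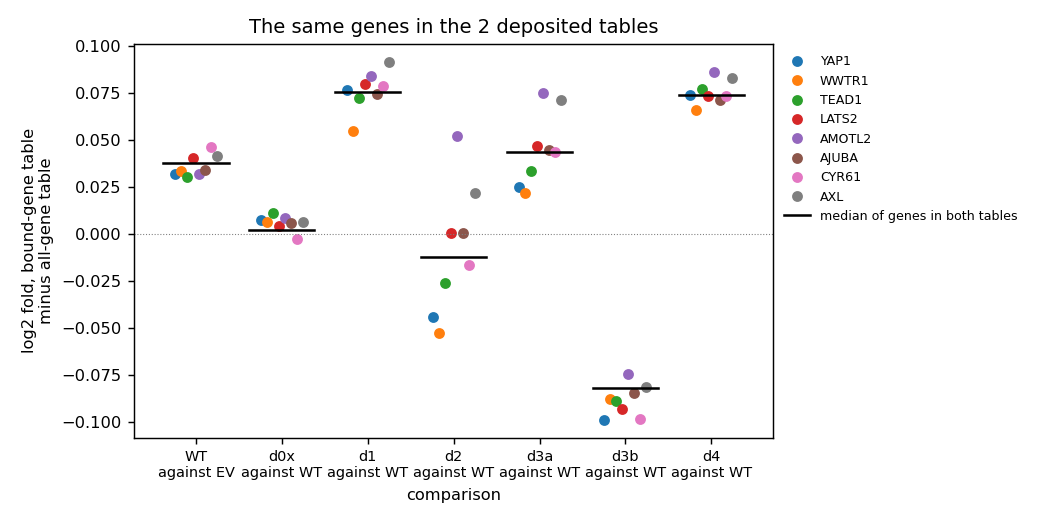
Log2 fold in the authors' table of bound genes minus that in their table of all genes, for the 8 members in both (points) and for the median gene in both tables (lines), by comparison. The points lie close to the line of each comparison, at 0.0744 in d4 and -0.082 in d3b, and spread most in d2.

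WWTR1 and LATS2 have antisense genes, and whether reads were counted by strand is not given in the sources used here, so that reads of each pair may not be told apart. For WT against EV the authors' deposited table puts WWTR1-AS1 at -0.61 and LATS2-AS1 at -0.30, neither called. TGFB2-AS1, antisense to the target TGFB2, was called as fallen at -1.86 in the authors' deposited table. It was also called as risen in d0x at 1.10, in d2 at 1.21 and in d4 at 0.95 in the authors' deposited table. TGFB2 itself was called in that table in WT against EV alone.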

How the data were processed

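RNA sequencing of 32 TET21 libraries in 8 groups of 4 was analysed from 2 tables of comparisons that the authors deposited. Per the file headers, each holds for 7 comparisons a log2 posterior fold change and a PPDE, a probability from 0 to 1, from a Bayesian model of read counts, with no value where a gene had no reads. A PPDE of at least 0.95 equals a false discovery rate below 0.05, per the file headers. GRCh37, DESeq, R 3.3.1, edgeR 3.16.5 and STAR 2.5.2a are named in the submitters' processing notes, without their roles. The program behind the posterior values and the scaling are not given in the sources used here. Library depths and values were not analysed here, so no test of genes was fitted and no interval is given.

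Genes were counted as called by the authors' threshold, beside the share of all genes tested in that comparison. In all 58317 genes, the number of calls the authors deposited was that found from the PPDE values. Protein-coding genes were taken by symbol from GENCODE 29. The 10 members and the 14 lists were chosen with earlier results of these data known. Named were the members, list genes called in WT against EV, up to 5 more per list called in a mutant, and the 5 genes nearest to CYR61 and to CTGF. The lists hold 133 symbols, of which 132 were in the table. Promoter windows came from RefSeq, GRCh38.p14, and no coordinates were set beside the GRCh37 values. Planned comparisons of member proteins were not run, and some list genes that the naming rule takes are not reported here. Counting, distance and motif functions were tested on simulated data. Alternatives were PPDE thresholds of 0.90 and 0.99, a log2 fold of 1 or more in size, the table of bound genes, centring on the median gene, and the 150 bases before the start. The protein-coding background was added after the data were seen. Python 3.11.15 and pandas 2.3.3 were used.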

Additional observations from a re-analysis of the deposited data

How the results depend on the processing

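No paired analysis was possible because the tables hold no values per library, and for the same reason replicates could not be left out in turn. With a PPDE of 0.90 each count of called members was unchanged, and with 0.99 only AXL lost its call, in WT against EV. The table of bound genes called 5 of 15 Hippo genes as fallen in WT against EV, where 7.32% of all its genes fell. It called 6 of 16 signature genes as risen in d2, where 2.17% of all its genes rose. With an absolute log2 fold of at least 1 the called members were 2 in WT against EV and 0 in each of d0x, d1 and d4, and CYR61 and CTGF alone kept calls, in 2 comparisons each. Of the 8 members in the table of bound genes, the called members were 1 in d0x, 0 in d1, 1 in d2 and 1 in d4. That table does not hold CTGF, and CYR61 in d1 and LATS2 in d2 missed its threshold, for a cause that was not tested. The signs that turned were all of values without a call. In the table of bound genes TEAD1 in d1 stood at 0.055, and in d3b WWTR1 stood at -0.0083 and CYR61 at -0.011. Centred on the median of all tested genes, TEAD1 in d1 stood at 0.049, and in d3b CTGF stood at -0.056 and ANKRD1 at -0.052. The other 67 of the centred folds kept their sign. Sums over EV moved by over 1.5 times for AXL in d2, d3a and d4, to -0.04, -0.22 and -0.17 in the table of bound genes. In the 150 bases before the start, GGAATG was left 2 times in CTGF and once in ANKRD1, AMOTL2 and AJUBA, and no longer in YAP1, LATS2 and AXL. The depth behind each value is unknown, so a member without a call cannot be said not to differ.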
